A study of Mus musculus with 4 samples.

Results

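Activated mature neutrophils were selected on measured transcripts, and 2333 cells met the rule among the 31279 cell barcodes kept from 4 libraries of mouse bone. The rule asked for mature neutrophils (S100a8 and S100a9 together at least 1% of the unique molecular identifiers, UMIs; the granule transcripts Camp, Ngp and Ltf together under 1%) that held at least 3 UMIs of the genes Ccrl2, Il1rn, Cd274 and Il1f9, called the activation sum below. It left out cells with 4 or more UMIs of Creg1, Pdcd1lg2, Ptgr1 and Gclm (the Creg1 sum) and cells with 3 or more UMIs of the monocyte genes Csf1r, Ms4a6c and Ccr2. The members numbered 275 in Ctrl replicate 1, 620 in Ctrl replicate 2, 578 in HLU replicate 1 and 860 in HLU replicate 2, and values of the 4 libraries are given in this order throughout. The libraries came from wild-type mice (C57BL/6J by the methods), 2 kept as controls (Ctrl) and 2 whose hind limbs were unloaded by tail suspension for 28 days (HLU), with 1 library per mouse. Both groups had tibiae and femurs flushed of marrow before enzymatic digestion, so the neutrophils are those left in bone after flushing. The deposited description places the mice at postnatal day 28 whereas the methods name adult mice, and their age is therefore not stated here.

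Neutrophils are short-lived granulocytes that mature in the bone marrow, and the mature cells carry the chemokine receptor Cxcr2 and stores of granule proteins. On contact with microbial products or cytokines they switch on a transcriptional programme that runs largely through the factor NF-kB, which its own inhibitor Nfkbia holds in check. The genes that define the members belong to this kind of response: Ccrl2 is a receptor that binds chemerin without signalling, Il1rn is the antagonist of the interleukin-1 receptor, Cd274 is the ligand PD-L1 of the T cell checkpoint receptor PD-1, and Il1f9 is the cytokine interleukin-36 gamma.

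One library stood apart. HLU replicate 2 held 99849070 UMIs against 57925383 in Ctrl replicate 1, 61296053 in Ctrl replicate 2 and 47819046 in HLU replicate 1, and its members had a median of 3794.5 UMIs per cell against 1859, 2507 and 2206. Between the summed counts of the members, chi-squared per degree of freedom was 6.92 for the 2 Ctrl libraries, 65.8 for the 2 HLU libraries and 102 between HLU replicate 2 and Ctrl replicate 2. No pair was thus 1 library under different names. Scrublet scores marked 13, 28, 21 and 28 of the members as putative doublets, and these cells were kept. Ctrl replicate 1 and Ctrl replicate 2 shared 1 member barcode, Ctrl replicate 2 and HLU replicate 1 shared 1, and the other 4 pairs shared 0.

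The members carried the transcripts of mature neutrophils. Retnlg, a resistin-like protein of mature neutrophils, was found in 93.5%, 95.5%, 97.8% and 90.5% of the members, against 20.6%, 41.4%, 43.9% and 10.1% of B cells (at least 3 UMIs of Cd79a and Cd79b, with S100a8 and S100a9 under 1%), taken as the level given by free RNA. Csf3r, the receptor for the granulocyte growth factor G-CSF, was found in 72.0%, 71.1%, 88.2% and 85.3% of the members and in 3.81% to 9.41% of B cells. Cxcr2 was found in 64.0%, 59.0%, 76.8% and 85.0% of the members and in at most 3.61% of B cells. Median depth of the B cells was 3648.5, 4053, 3646 and 2441 UMIs, so that in the first 3 libraries the B cells were deeper than the members. Ly6g, a surface marker of mouse neutrophils, was found in 8%, 10%, 17.5% and 39.1% of the members, and in at most 0.710% of B cells.

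Transcripts that mark other blood cells were summed over the members of each library. The 8 T cell genes summed to 1.46, 27.1, 19.7 and 17.8 CPM (the usual scaling of a UMI count to the total of its library and state), and the 7 basophil and mast cell genes to at most 8.55 CPM. The 8 B cell genes, led by the immunoglobulin light chain Igkc, summed to 336, 188, 547 and 92.2 CPM. The 12 genes of monocytes and macrophages, 3 of them also in the rule, summed to 1741, 1320, 232 and 908 CPM in the members and to 1747, 3136, 515 and 1463 CPM in the other mature neutrophils, with C1qb at 0 in the members. In the Ctrl members Fn1, the fibronectin gene, made up most of the sum with 1580 and 1184 CPM, and in the HLU members it stood at 21.04 and 9.16 CPM. Adgre1, which encodes F4/80, stood at 7.30, 17.5, 22.4 and 182 CPM and Ly6c2 at 84.6, 53.6, 131 and 623 CPM, so that both were highest in HLU replicate 2. Their part in the results was not tested. Transcripts of skeletal cells were abundant in the Ctrl libraries. A list of 17 cartilage genes, led by the joint lubricant Prg4, summed to 13474.5 and 8847 CPM in the members of Ctrl replicate 1 and Ctrl replicate 2 but to 24.3 and 13.6 CPM in HLU replicate 1 and HLU replicate 2, with Matn1 at 0 in each library. A list of 15 genes of mesenchyme and bone, led by the proteoglycan Dcn, summed to 8903 and 5878 CPM in Ctrl and to 446 and 692 CPM in HLU. Every member of the Ctrl libraries held at least 1 UMI of these lists, against 35.3% of the members of HLU replicate 1 and 12.4% of those of HLU replicate 2. Cells rich in these transcripts and poor in S100a8 and S100a9 made up 36.7% and 24.2% of the kept barcodes in Ctrl, whereas in HLU they made up 0.370% and 0.809%.

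The 4 genes of the activation sum did not take equal parts in it, and their parts differed between libraries. Il1f9 gave 32.4% and 22.2% of the sum's UMIs in Ctrl replicate 1 and Ctrl replicate 2 and 58.2% and 42.1% in HLU replicate 1 and HLU replicate 2. Ccrl2 gave 27.0%, 33.2%, 15.2% and 6.10%, Cd274 gave 14.1%, 29.1%, 6.08% and 3.97%, and Il1rn gave 26.4%, 15.4%, 20.4% and 47.8%. Members of the HLU libraries were thus chosen mostly by Il1f9 and Il1rn and those of the Ctrl libraries by a more even mixture. The share of members with a UMI of Ccrl2 was 54.2% and 61.8% in Ctrl against 32.0% and 21.5% in HLU, with 5.15% to 12.6% in other mature neutrophils and 2.45% to 5.15% in B cells. Cd274 was found in 37.5% and 61.3% of Ctrl members and in 20.4% and 18.4% of HLU members, for which the B cells of the same HLU libraries gave 12.4% and 7.36%. As the rule used these genes, the values are given as a description without a test. Most members held more than 1 of the 4 genes: 74.5%, 81.3%, 63.5% and 86.2%. The median activation sum was 4, 5, 4 and 5 UMIs. At the threshold itself, 37.5%, 22.3%, 32.5% and 19.7% of the members had a sum of exactly 3.

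**Figure D1:**
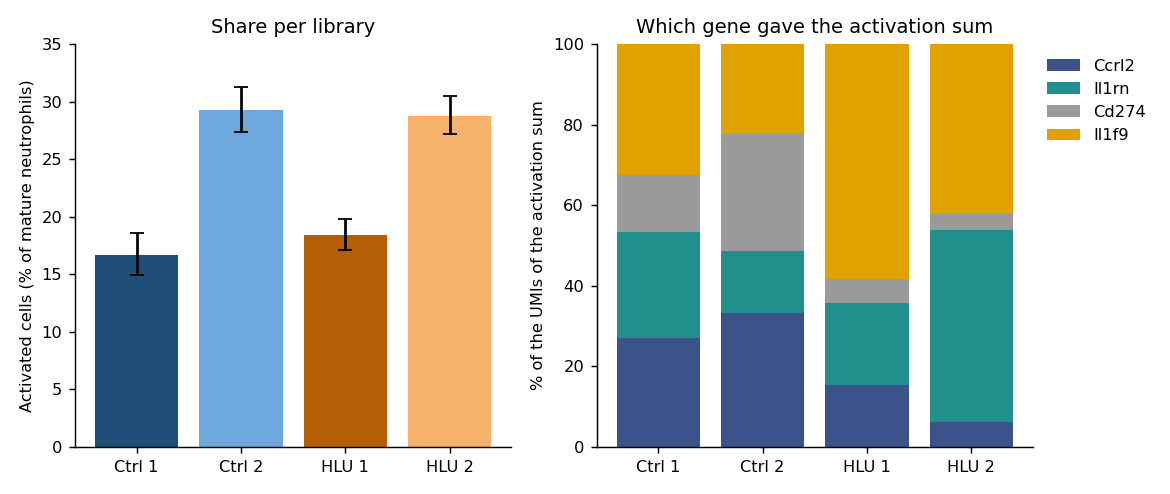
Left, activated cells as a percentage of mature neutrophils in each library, with 95% exact binomial intervals (counting error only). Right, percentage of the UMIs of the activation sum that each of its 4 genes gave; Il1f9 gave 58.2% in HLU replicate 1, Il1rn 47.8% in HLU replicate 2, and Ccrl2 and Cd274 gave less in both HLU libraries than in either Ctrl library.

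The share of activated cells among mature neutrophils did not separate the groups. It was 16.7% of 1647 cells in Ctrl replicate 1 (exact binomial interval 14.9% to 18.6%), 29.3% of 2117 in Ctrl replicate 2 (27.4% to 31.3%), 18.4% of 3138 in HLU replicate 1 (17.1% to 19.8%) and 28.8% of 2988 in HLU replicate 2 (27.2% to 30.4%). Each group thus had 1 library with a low and 1 with a high share, and the libraries within a group lay farther apart than the groups. Ctrl averaged 23.0% ± 8.90 (SD, n = 2) and HLU averaged 23.6% ± 7.33 (SD, n = 2), a difference of 0.609 percentage points (two-sided exact permutation test, p = 1; 2 libraries against 2 cannot go below 0.333). With every neutrophil thinned to 2000 UMIs, which left out 767, 814, 1349 and 300 shallower cells, the shares were 10.03%, 25.3%, 16.4% and 24.5%. The denominator included cells with a high Creg1 sum, which numbered 616, 686, 1617 and 1565.

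The boundary with those cells ran through the activation genes. Of the mature neutrophils with an activation sum of at least 3, 56.6% and 41.9% in Ctrl and 65.2% and 58.7% in HLU also reached the Creg1 sum and were therefore not members. Just inside the boundary, with a Creg1 sum of exactly 3, lay 47, 81, 156 and 212 cells, and just outside it, with a sum of exactly 4, lay 37, 80, 152 and 204 cells. Il1f9 was found in 75%, 75.4%, 83.6% and 81.5% of the cells with the Creg1 sum, a range that overlaps with that of the members (58.9%, 48.7%, 83.2% and 89.0%). Csf3r was higher in the members in each library, at 829, 741, 1300 and 646 CPM against 251, 428, 641 and 281 CPM in cells with the Creg1 sum. Counting every mature neutrophil with an activation sum of at least 3, whatever its Creg1 sum, the share was 38.5% and 50.4% in Ctrl and 52.9% and 69.6% in HLU (exact permutation test, p = 0.333; chosen after the values were seen).

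Compared with mature neutrophils under the same Creg1 limit that held fewer than 3 UMIs of the activation sum (756, 811, 943 and 563 cells), the members held more transcripts of chemokines, of interleukin-1 beta and of the NF-kB pathway. The comparison was made within each library as a log2 ratio of CPM (prior of 1 CPM) over 4630 genes at 20 CPM or more in either state, leaving out the genes of the rule. Because the rule chose the cells by genes of this same contrast, the ratios are a description without a test. In all 4 libraries 524 genes (11.3%) were higher and 1405 (30.3%) lower in the members, and the median log2 ratio over all 4630 was -0.13. Only 22 genes (0.475%) were higher in all 4 with a mean log2 ratio of at least 1, and 125 (2.7%) were lower in all 4 with a mean of -1 or less.

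Cxcl2, a chemokine that draws neutrophils through Cxcr2, was among the 22 and had the smallest SD of the 15 with the largest ratios. It stood at 6914, 7189, 4650 and 4475 CPM in the members and at 2828, 2873, 2164 and 1836 CPM in the other mature neutrophils. The highest value among the other mature neutrophils lay below the lowest among the members, and the mean log2 ratio was 1.25 ± 0.10 (SD, n = 4). Ccl3, a chemokine for monocytes and lymphocytes, stood at 1592, 2147, 767 and 1754 CPM in the members and at 650, 681, 534 and 509 CPM in the others (log2 ratio 1.31 ± 0.57). Its ratio was smallest in HLU replicate 1. Ccl4, its neighbour on chromosome 11, had a log2 ratio of 1.32 ± 0.64. Of the 9 chemokines at the required level 4 were higher in all 4 libraries (Cxcl2, Ccl3, Ccl6 and Ccl4) and 0 were lower, with a median log2 ratio of 0.45. Cxcl1, Cxcl3, Ccl5, Ccl2 and Ccl9 differed in sign between libraries. Against cells with the Creg1 sum, the members' mean log2 ratio was 0.91 for Cxcl2, 0.45 for Ccl3 and 0.03 for Ccl4. The members lay higher than those cells in 4, 3 and 2 libraries. Ccl3 was found in 70.6%, 79.9%, 71.9% and 81.9% of those cells and in 67.3%, 78.7%, 56.6% and 77.9% of the members.

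Il1b, the interleukin-1 beta whose receptor Il1rn blocks, stood at 1553, 1040, 1110 and 3521 CPM in the members against 552, 399, 644 and 1909 CPM in the other mature neutrophils (log2 ratio 1.14 ± 0.35). HLU replicate 2 was highest in both states, and the other mature neutrophils of that library lay above the members of the remaining 3. Nlrp3, the inflammasome sensor upstream of interleukin-1 beta release, stood at 127, 88.7, 85.5 and 105 CPM against 46.1, 27.0, 63.5 and 42.9 CPM (log2 ratio 1.20 ± 0.55). Mefv, which encodes pyrin, another inflammasome sensor, had a log2 ratio of 1.22 ± 0.41. Acod1, the enzyme that makes itaconate, stood at 449, 272, 336 and 436 CPM against 138, 94.3, 166 and 242 CPM (log2 ratio 1.27 ± 0.40). For Acod1 the members and the others did not overlap across libraries. Against cells with the Creg1 sum, the mean log2 ratios were 1.59 for Il1b, 1.19 for Nlrp3, 1.36 for Mefv and 1.02 for Acod1. Each of these was higher in the members in 4 libraries.

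Of the 21 genes of NF-kB and its feedback at the required level, 14 were higher in all 4 libraries and 0 were lower, with a median log2 ratio of 0.51. Nfkbia, the inhibitor that retains NF-kB in the cytosol, stood at 1566, 850, 880 and 1531 CPM in the members and at 620, 533, 514 and 1055 CPM in the others (log2 ratio 0.83 ± 0.35). Nfkbiz, an atypical inhibitor that also acts as a coactivator, had a log2 ratio of 0.83 ± 0.35 and Birc3, an inhibitor of apoptosis, one of 0.58 ± 0.11. Sod2, the mitochondrial superoxide dismutase, had a log2 ratio of 0.73 ± 0.20. The remaining genes of largest ratio were the surface receptors Adgre1 (1.43 ± 0.37) and Lilra6 (1.36 ± 0.57), the secreted inhibitor Wfdc17 (1.29 ± 0.65), Marcksl1 (1.21 ± 0.57), Snx10 (1.14 ± 0.50), Lacc1 (1.13 ± 0.45), the stress-induced Gadd45b (1.12 ± 0.45) and A930007I19Rik (1.22 ± 0.48). Adgre1, Lilra6 and Lacc1 lay far higher in HLU replicate 2 than elsewhere, Adgre1 at 182 CPM in its members against 7.30, 17.5 and 22.4 CPM. A930007I19Rik is annotated as an antisense gene on chromosome 19 of mm10 (29464750 to 29523159), where it overlaps the rule gene Pdcd1lg2 (29410919 to 29471161), and the sources used here do not say whether strand was used in counting.

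**Figure D2:**
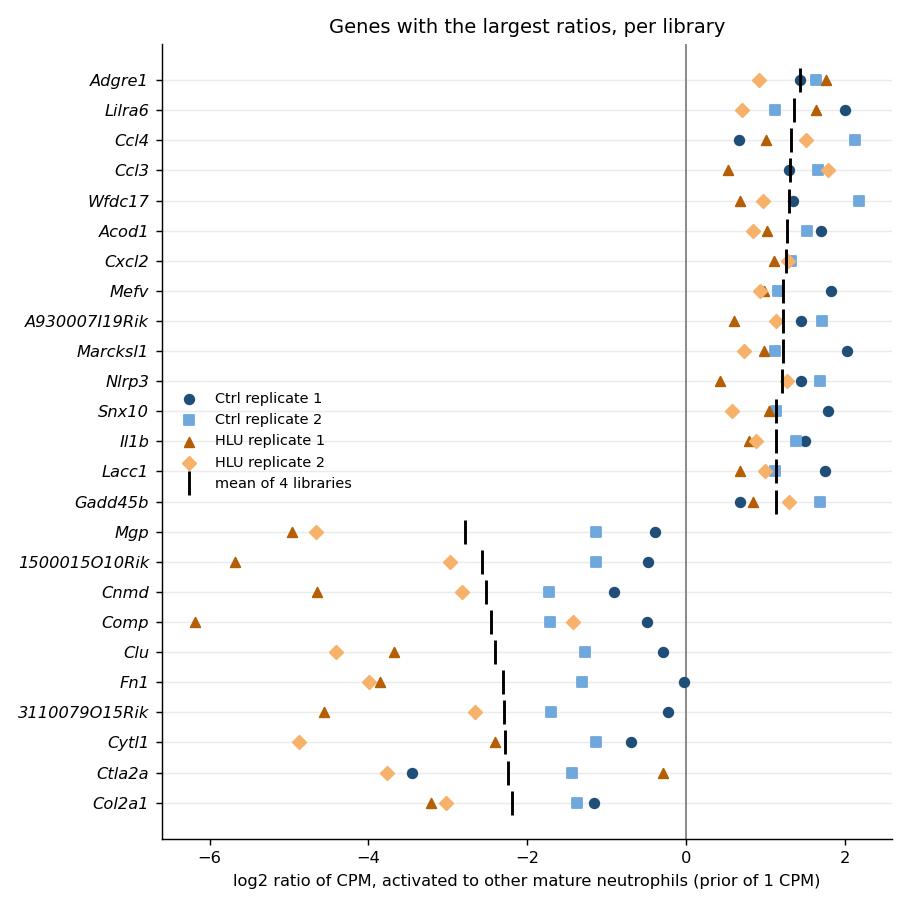
Log2 ratio of CPM (x axis) of activated to other mature neutrophils for the 15 genes with the largest and the 10 with the smallest mean among those with 1 sign in all 4 libraries; points are libraries and bars their mean. The 4 points of Cxcl2 lie close together (1.25 ± 0.10), whereas those of Mgp at the bottom spread widely (-2.79 ± 2.36).

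Cells under the Creg1 limit were sorted by their activation sum into 6 steps of 0, 1, 2, 3, 4 to 6 and 7 or more UMIs. The sum is the value that chose the members, so the steps are a description. Just outside the threshold, at a sum of 2, Cxcl2 stood at 3428, 3550, 3016 and 2167 CPM. Just inside it, at 3, Cxcl2 stood at 6810, 4484, 3526 and 2863 CPM, and at 7 or more UMIs it stood at 10547, 9906, 7318 and 6120 CPM. Slc7a11, the cystine and glutamate exchanger, went from 483, 351, 642 and 694 CPM at a sum of 0 to 1689, 1308, 2017 and 1963 CPM at 7 or more, with a higher value at each further step in each library. Nfkbia went from 635, 482, 411 and 839 CPM at 0 to 2162, 1045, 1365 and 1798 CPM at 7 or more. Retnlg had no such course: from a sum of 0 to 7 or more it went from 10672 to 15111 CPM in Ctrl replicate 1, from 13442 to 11964 in Ctrl replicate 2, from 18770 to 20958 in HLU replicate 1 and from 9964 to 7995 in HLU replicate 2. The median depth of the cells at 7 or more was 1868, 2595.5, 2155 and 3680.5 UMIs and at 0 it was 1771.5, 2183, 2198 and 2613.5 UMIs.

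**Figure D3:**
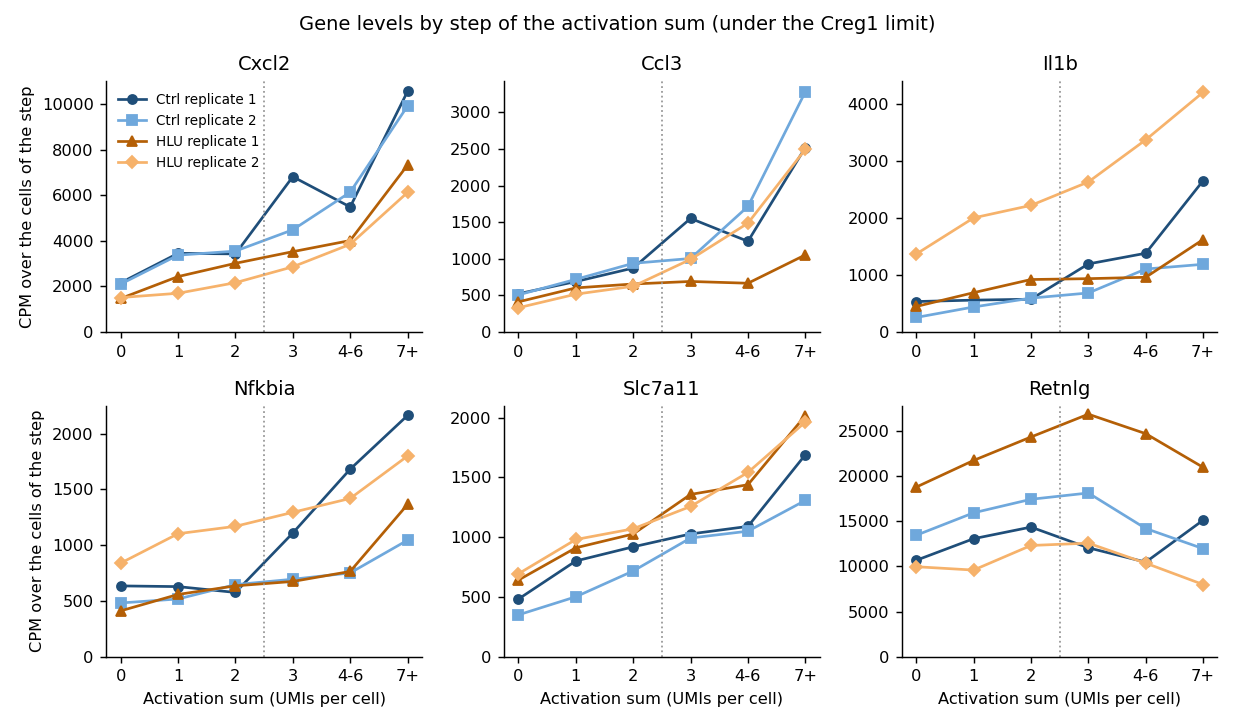
CPM of 6 genes (y axis) over the cells of each step of the activation sum (x axis, UMIs per cell), 1 line per library; the dotted line is the threshold of the rule. Cxcl2, Ccl3, Il1b, Nfkbia and Slc7a11 are highest at 7 or more UMIs in each library, while Retnlg is highest at 7 or more in Ctrl replicate 1 alone.

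Promoters of genes that were higher together were searched for the NF-kB consensus on both strands, in the RefSeq promoters of build GRCm38.p6 (250 bases before to 50 after each start). It was found in 2779 of all 32851 promoters (8.46%). Of the 15 named genes with the largest ratios 13 were found there and 4 had a promoter with the consensus (Cxcl2, Nlrp3, Lacc1 and A930007I19Rik), and of the 4 genes of the activation sum Ccrl2 had one. Some genes have several promoters. Counted by promoter, the consensus was in 4 of 16 for the 13 genes and in 1 of 8 for the activation sum. The AP-1 motif TGANTCA was found in 7.81% of all promoters and in 1 of the 16 promoters of the 13 genes (Snx10). Of the 8 promoters of the activation sum 1 had it (Il1rn). A match is no evidence that a factor binds there. The promoters of Cxcl2 (chr5:90903649-90903948, plus strand), of Ccrl2 (chr9:111057469-111057768, minus strand) and of Nfkbia (chr12:55492598-55492897, minus strand) are shown as matched examples. Ccrl2 is a gene of the rule, and Nfkbia, a feedback gene, was not among the 15 named genes. Ccl3, Il1b and Acod1 carry the pattern above too, but their promoters had no match. The sequences shown are written 5′ to 3′ with the consensus in capitals. In Cxcl2 a pair of overlapping matches begins 97 and 96 bases before the start, in Ccrl2 the match begins 56 and in Nfkbia 29 bases before it.
Cxcl2: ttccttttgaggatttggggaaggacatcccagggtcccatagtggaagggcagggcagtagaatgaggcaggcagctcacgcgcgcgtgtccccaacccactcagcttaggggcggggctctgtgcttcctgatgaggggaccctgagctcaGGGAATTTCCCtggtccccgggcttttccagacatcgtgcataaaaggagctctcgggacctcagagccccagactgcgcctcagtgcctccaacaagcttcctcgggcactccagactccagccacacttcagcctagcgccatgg
Ccrl2: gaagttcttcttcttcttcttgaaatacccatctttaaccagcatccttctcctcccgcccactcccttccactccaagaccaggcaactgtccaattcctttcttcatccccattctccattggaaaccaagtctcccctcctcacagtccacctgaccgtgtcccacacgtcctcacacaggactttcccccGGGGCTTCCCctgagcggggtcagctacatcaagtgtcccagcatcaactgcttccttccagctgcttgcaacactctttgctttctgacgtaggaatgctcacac
Nfkbia: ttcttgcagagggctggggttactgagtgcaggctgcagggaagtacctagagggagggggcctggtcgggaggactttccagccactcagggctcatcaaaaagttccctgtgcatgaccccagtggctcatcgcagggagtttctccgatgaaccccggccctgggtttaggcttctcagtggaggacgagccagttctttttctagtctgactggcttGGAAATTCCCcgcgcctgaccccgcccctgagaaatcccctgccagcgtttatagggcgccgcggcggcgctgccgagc

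Genes of neutrophil function and metabolism were not all higher in the members. The counts of the lists stand beside 11.3% higher and 30.3% lower in all 4 libraries over all 4630 genes. Of 15 genes of mature neutrophils 9 were higher in all 4 libraries and 0 lower. Clec4d, a lectin receptor, had a log2 ratio of 0.56 ± 0.19 and Msrb1 one of 0.27 ± 0.18, while Retnlg differed in sign (-0.01 ± 0.15). Of 11 genes of secondary and tertiary granules outside the rule 6 were higher, among them the iron-binding Lcn2 (0.41 ± 0.14), Wfdc21 (0.54 ± 0.10) and the protease inhibitor Slpi (0.67 ± 0.30). Chil3 was the 1 lower gene of that list (-0.66 ± 0.36), and Lyz2 differed in sign. Of 6 oxidase subunits 3 were higher and 0 lower, with Rac2 at 0.17 ± 0.11 and Cyba of differing sign. Of 5 primary granule genes 1 was lower (Ms4a3, -0.81 ± 0.66) and the others, Elane, Prtn3, Ctsg and Mpo, differed in sign.

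Of 15 genes of iron and of the NRF2 stress response 9 were higher in all 4 libraries, 0 were lower and 6 differed in sign. Fth1 and Ftl1, the chains of ferritin, had log2 ratios of 0.55 ± 0.37 and 0.39 ± 0.20, Gsr, the glutathione reductase, 0.16 ± 0.05, and Slc7a11, which brings in cystine for glutathione, 0.94 ± 0.19. Slc7a11 stood at 1181, 1135, 1552 and 1638 CPM in the members and at 674, 488, 823 and 936 CPM in the other mature neutrophils, and the states did not overlap. Of the 12 genes of glutamine uptake and use Slc7a11 alone was higher in all 4 libraries. The 5 lower genes of that list were Glul, Gfpt1, Oat, Slc38a1 and Asns, with mean log2 ratios from -0.80 (Slc38a1) to -0.55 (Glul). Of the 18 glycolysis genes 1 was higher (Pfkfb3, 0.51 ± 0.34) and 6 were lower, among them Gapdh (-0.22 ± 0.05), while Pkm, Pgk1 and Ldha differed in sign. The count of lower genes lay near the 30.3% of all 4630 genes that were lower, against 11.3% higher. The median log2 ratio was -0.13 for the list and -0.13 over all genes. Of the 17 targets of hypoxia-inducible factors 1 was higher (Hif1a itself, 0.52 ± 0.31) and 5 were lower, while Ero1l, Bnip3 and Bnip3l differed in sign. The count of lower targets also lay near the 30.3% of all genes, and the median log2 ratio of the list was -0.11.

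Of 10 survival genes 5 were higher and 0 lower, with Pim1, a kinase downstream of cytokine receptors, at a log2 ratio of 0.49 ± 0.24 and Mcl1, on which neutrophils depend for survival, at 0.22 ± 0.17. Of 12 pro-apoptotic genes 3 were higher, 3 were lower and the others differed in sign between libraries. The death receptor Fas stood at 226, 239, 277 and 461 CPM in the members against 125, 118, 151 and 217 CPM in the others (log2 ratio 0.95 ± 0.11), and Bcl2l11, which encodes Bim, had a log2 ratio of 0.78 ± 0.30. Fas was thus higher in the members of each library by a like factor. Of the 24 immediate early and dissociation genes 9 were higher and 1 was lower, among them Btg1 (0.31 ± 0.10), Ier3 (0.49 ± 0.29), Junb (0.49 ± 0.16) and Dusp1 (0.45 ± 0.18), all 4 higher. Of 4 interferon-stimulated genes at the required level Slfn4 alone was higher (0.21 ± 0.06).

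Of 11 chemoattractant receptors 5 were higher and 1 lower. Hcar2, the receptor for butyrate and nicotinic acid, stood at 824, 1306, 588 and 171 CPM in the members against 559, 697, 474 and 84.9 CPM (log2 ratio 0.69 ± 0.32), and in HLU replicate 2 the members lay below the other mature neutrophils of the remaining 3 libraries. Fpr1, the receptor for formyl peptides, had a log2 ratio of 0.50 ± 0.27, while Cxcr2 and Ccr1 differed in sign. Of 8 checkpoint and suppressive genes outside the rule 5 were higher and 0 lower, among them Acod1 and Ptgs2, the inducible cyclooxygenase (0.62 ± 0.31). Of 6 cytokines and growth factors 2 were higher, Tnf (1.10 ± 0.50) and Osm (0.21 ± 0.06), and Tgfb1 was lower (-0.35 ± 0.12). Of the 4 interleukin-1 genes outside the rule 2 were higher, Il1b and the receptor subunit Il1rap (0.47 ± 0.19), and 0 were lower. Lists of B cells, dendritic cells, monocytes and erythroid cells had 0 of 5, 0 of 3, 1 of 4 and 0 of 2 genes higher. In the same order, 0, 2, 1 and 1 genes were lower. The monocyte gene Csf1r, left out as a gene of the rule, was higher in all 4 libraries (mean 42.7 against 19.4 CPM).

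The genes with the smallest ratios were mostly transcripts of skeletal cells. Mgp, the matrix Gla protein of cartilage, stood at 661, 474, 26.3 and 0.555 CPM in the members and at 868, 1039, 849 and 38.2 CPM in the other mature neutrophils (log2 ratio -2.79 ± 2.36). Col2a1, the collagen of cartilage, had a log2 ratio of -2.19 ± 1.07. Also on the cartilage list, 1500015O10Rik (-2.57 ± 2.33), Comp (-2.45 ± 2.54), Clu (-2.41 ± 1.95) and Cytl1 (-2.28 ± 1.88) lay in the same range. Cnmd, Fn1 and 3110079O15Rik did so too. Ctla2a, which is not a cartilage gene, stood at 1.46, 2.12, 11.2 and 4.996 CPM against 25.9, 7.48, 13.9 and 80.7 CPM (-2.24 ± 1.66). Of the 15 cartilage genes at the required level 11 were lower in all 4 libraries and 0 higher, and of the 10 of mesenchyme and bone 5 were lower and 0 higher. Cells in which the 2 skeletal lists together gave at least 5% of UMIs made up 4%, 1.94%, 0.173% and 0.116% of the members and 11.9%, 12.2%, 0.636% and 0.178% of the other mature neutrophils. Their part in these ratios was not tested.

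Within the members, HLU was compared with Ctrl to ask how unloading bears on these cells. Of 7098 genes tested with edgeR's quasi-likelihood test, 294 (4.14%) had an adjusted p under 0.05 and were lower in HLU, and 0 (0%) were higher; 1178 genes had an unadjusted p under 0.05. DESeq2 called 360 lower and 29 higher. Of the 294 genes, 287 (97.6%) stood at least 2-fold higher in the skeletal cells of the Ctrl libraries than in the Ctrl members, against 26.7% of all tested genes, and from which cells their RNA came was not tested. All 14 cartilage genes tested and 7 of 10 genes of mesenchyme and bone were called lower. The 7 called genes under that limit were Apod, Ccl2, Ddit4, Fosb, Nov, Pdpn and Ptx3, named after their values were seen. Without the 11, 12, 1 and 1 members that drew at least 5% of their UMIs from the skeletal lists, an alternative chosen after seeing the data, 125 genes were called, all lower. The number of calls was 134 without putative doublets, 137 with equal cell numbers, 6 with at least 10 counts in every library and 978 without a filter on low counts (216 of them higher). The count rested on single libraries: it was 185 without Ctrl replicate 1, 2756 without HLU replicate 1 (1180 of them higher) and 719 without HLU replicate 2 (114 higher).

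The largest falls by the naming rule were Cilp, Col10a1, 1500015O10Rik, Sox9, Ndufa4l2, Cryab, Sod3 and Acan. Cilp, a matrix protein of cartilage, gave 211 and 334 UMIs in the Ctrl members and 0 in both HLU libraries, which with a floor of 3 counts over the group made it at least 364-fold lower (edgeR, adjusted p = 0.00145). Col10a1, the collagen of hypertrophic cartilage, gave 101 and 361 UMIs in Ctrl and 0 in HLU and was at least 257-fold lower (edgeR, adjusted p = 0.00145). Sox9, the master transcription factor of chondrocytes, gave 114 and 228 UMIs against 0 and was at least 216-fold lower. Ndufa4l2 was at least 209-fold and Sod3 at least 150-fold lower by the same floor. 1500015O10Rik went from 2200 ± 644 CPM (scaled by edgeR's TMM factors) to 0.851 ± 1.20 CPM (n = 2, SD), with -10.99 as its log2 fold change (adjusted p = 0.00145, edgeR). Acan, the proteoglycan aggrecan, went from 340 ± 116 to 0.170 ± 0.241 CPM. Sox9, Acan and Col10a1 are genes of chondrocytes. The share of skeletal cells in the libraries, 36.7% and 24.2% in Ctrl against 0.370% and 0.809% in HLU, moved with them, and its part in these calls was not tested.

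**Figure D4:**
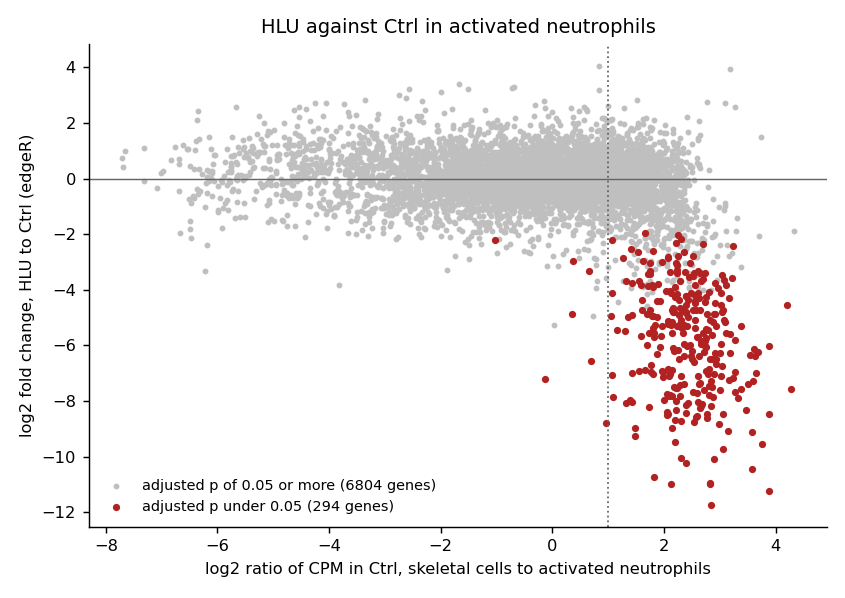
Each point is 1 of 7098 genes: its log2 ratio of CPM in the Ctrl libraries between skeletal cells and activated neutrophils (x axis) and its log2 fold change between HLU and Ctrl in activated neutrophils (y axis). The 294 called genes (red) all lie below 0, and 287 of them lie to the right of the dotted line, which marks a 2-fold higher level in skeletal cells.

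Of the 222 tested genes on the 18 lists of neutrophil programmes 7 were called (3.15%, against 4.14% of all tested genes), all lower: Nos2, Cxcl1, Ccl2, Hbegf, Fosb, P4ha2 and Adm (named after their values were seen). Of these, 5 belonged to the 287 above: in the skeletal cells of the Ctrl libraries Nos2 stood 2.92-fold, Cxcl1 2.46-fold, Hbegf 8.16-fold, P4ha2 4.71-fold and Adm 3.41-fold higher than in the Ctrl members, and what part of their signal came from such cells was not tested. The ratio was 1.27 for Ccl2 and 1.58 for Fosb. Nos2, the inducible nitric oxide synthase, stood at 238 and 250 CPM in the Ctrl members and at 23.6 and 14.98 CPM in the HLU members (edgeR log2 fold change -3.67 with SE 0.45, adjusted p = 0.00528). The groups did not overlap for Nos2. Cxcl1 stood at 1304 and 239 CPM in Ctrl against 10.01 and 23.8 CPM (log2 fold change -5.48, SE 0.93, adjusted p = 0.0174, edgeR), and Ccl2 at 250 and 48.5 against 1.77 and 7.49 CPM (log2 fold change -4.88, edgeR's adjusted p = 0.0280). Hbegf, a growth factor of the EGF family, stood at 12.5 and 12.3 CPM against 0.589 and 0.681 CPM (log2 fold change -4.12, edgeR's adjusted p = 0.0191). Fosb, an immediate early transcription factor, stood at 40.3 and 32.0 against 5.89 and 1.70 CPM (log2 fold change -3.32, edgeR's adjusted p = 0.0288). P4ha2, a collagen prolyl hydroxylase, stood at 101 and 89.5 against 1.18 and 0 CPM, and the peptide hormone Adm at 50.04 and 21.9 against 0 and 0.340 CPM.

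The summed levels of hypoxia-inducible factor targets, glycolysis genes and immediate early genes lay lower in HLU, and lowest in HLU replicate 2. The skeletal transcripts and cells given above were also lower in HLU, and the median mitochondrial share of the members' UMIs was 0.413%, 0.483%, 0.353% and 0.20%, lowest in HLU replicate 2 as well. Their part in these differences was not tested. Values of single genes are scaled by TMM factors here and sums of lists are not. Of 17 tested targets of hypoxia-inducible factors 16 were lower in both HLU libraries than in either Ctrl library and 0 were higher, where over all tested genes 25.8% were lower without overlap and 25% higher. The list summed to 8214, 9459, 5295 and 1065 CPM, and HLU replicate 2 was the lowest library for 15 of the 17 genes, and for 2399 of all 7098. The median log2 fold change of the list was -1.60, against 0.02 over all tested genes. Ero1l, an oxidase of the endoplasmic reticulum, stood at 2546 and 3310 CPM in Ctrl and at 1255 and 105 CPM in HLU (log2 fold change -2.11, edgeR's adjusted p = 0.329). For glycolysis 13 of 18 genes were lower without overlap and 1 higher, and the list summed to 23289, 24493, 19517 and 4267 CPM. Ldha, the lactate dehydrogenase A, stood at 2029, 2633, 1273 and 205 CPM, and Gapdh at 6014, 7023, 4938.5 and 1499 CPM. HLU replicate 1 lay between the Ctrl libraries and HLU replicate 2 for both, and no glycolysis gene passed the test (smallest adjusted p = 0.142, edgeR). Of 25 immediate early and dissociation genes 21 were lower without overlap and 0 higher, with list sums of 19422, 14893, 11365 and 4181 CPM. Btg1, an anti-proliferative gene, stood at 3669, 3869, 2815 and 839 CPM, and Ier3 at 1723, 1198, 457 and 619 CPM. The same 3 lists were lowest in HLU replicate 2 also in the other mature neutrophils (1034, 4632 and 3607 CPM).

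Secondary and tertiary granule, oxidase and interferon-stimulated genes lay mostly higher in HLU, without a call. HLU replicate 2 was the highest library for 10 of the 12, 5 of the 6 and 6 of the 10 tested genes of these lists. Over all tested genes it was the highest for 2539 and the lowest for 2399 of 7098, and 25% were higher and 25.8% lower without overlap, so that counts such as 3 of 11 or 5 of 22 below lie near the share of all genes. Of the 5 tested monocyte and macrophage genes, 2 were higher without overlap (Ly6c2, log2 fold change 2.73, and Adgre1, 3.21, with edgeR's adjusted p = 0.163 and 0.193) and highest in HLU replicate 2, and 3 were lower (Fn1, -6.49, called; F13a1, -1.52; Cx3cr1, -2.35), and the part of such cells was not tested. Of the 4 tested erythroid genes 4 were higher without overlap and 0 lower, with a median log2 fold change of 1.65 and no call. The part of red cell RNA was not tested. Of 12 secondary and tertiary granule genes 8 were higher without overlap and 1 lower, with a median log2 fold change of 1.25 and no call. Lcn2 stood at 4238, 5986, 3614 and 22827 CPM, so that its HLU mean rests on HLU replicate 2. Lyz2, the lysozyme of myeloid cells, stood at 2803 and 2154 CPM against 3990 and 7505 CPM (log2 fold change 1.21, edgeR's adjusted p = 0.290). Of 6 oxidase subunits 5 were higher without overlap, led by Cyba at 577 and 567 CPM against 906 and 2691 CPM (edgeR's adjusted p = 0.228). Of 10 interferon-stimulated genes 6 were higher without overlap, among them Slfn4 at 101 and 84.2 CPM against 180 and 173 CPM (edgeR's adjusted p = 0.286). Of 5 tested genes each of the interleukin-1 family and of primary granules, 2 were higher without overlap and 0 lower (median log2 fold changes 0.60 and 0.40). Of 22 NF-kB genes 2 were higher and 5 lower without overlap, and for 16 of them HLU replicate 2 was the highest library, with Sod2 at 284, 253, 160 and 2254 CPM. Cxcl2 stood at 6585 and 7214 CPM against 4164 and 5488 CPM (log2 fold change -0.52, edgeR's adjusted p = 0.622). Of 11 chemoattractant receptors 3 were higher and 2 lower. Hcar2 stood at 785 and 1310 CPM against 527 and 210 CPM, and Cxcr2 at 555 and 568 against 751 and 1058 CPM. Slc7a11 stood at 1124 and 1139 CPM against 1389 and 2009 CPM (edgeR's adjusted p = 0.547). Of 12 glutamine genes 2 were higher and 6 lower without overlap, with a median log2 fold change of -0.53. Of 9 cytokines and growth factors 1 was higher and 5 were lower without overlap (median -1.10), and of 11 chemokines 1 was higher and 5 were lower (median -0.52).

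**Figure D5:**
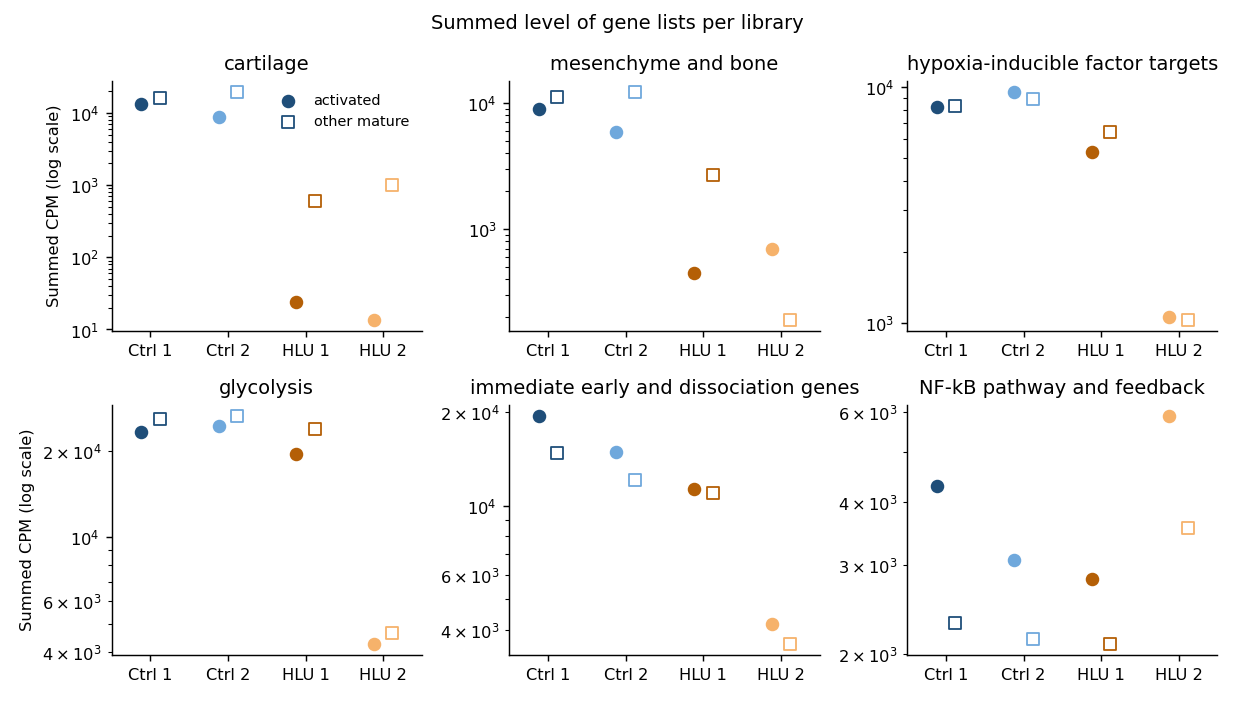
Summed CPM (y axis, log scale) of 6 gene lists per library in activated (filled circles) and other mature neutrophils (open squares). The skeletal lists lie far lower in HLU, hypoxia targets and glycolysis lie lowest in HLU replicate 2 (1065 and 4267 CPM in activated cells), and the NF-kB list is higher in activated than in other mature neutrophils of the same library.

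No gene passed edgeR's test as higher in HLU, and the 8 named by the smallest unadjusted p were Mrgpra2a, Hba-a2, Aldh3b1, Add1, Stfa3, Mrgpra2b, Ifitm6 and Sp3os. Ifitm6, an interferon-induced membrane protein of myeloid cells, gave 54 and 396 UMIs in Ctrl and 779 and 4283 UMIs in HLU, or 143 ± 96.2 and 958 ± 707 CPM (SD, n = 2 each; log2 fold change 2.73, edgeR's adjusted p = 0.109). Stfa3, a cysteine protease inhibitor of the stefin A cluster, went from 15.6 ± 4.34 to 113 ± 103 CPM (log2 fold change 2.82, edgeR's adjusted p = 0.103). Mrgpra2a and Mrgpra2b, a pair of near-identical receptor genes, had log2 fold changes of 2.88 and 2.27 (edgeR's adjusted p = 0.0809 and 0.107). Aldh3b1, an aldehyde dehydrogenase, went from 19.2 ± 2.31 to 83.2 ± 52.7 CPM. In each of these 5 genes HLU replicate 2 was far above HLU replicate 1, which itself lay above both Ctrl libraries. Hba-a2, a haemoglobin chain of red cells, was close in the 2 HLU libraries (30.6 and 32.3 CPM), and haemoglobin transcripts had been limited by the filter on cells. It was 1 of 4 tested erythroid genes, all of them higher in HLU without overlap. Reads of Stfa3, Mrgpra2a, Mrgpra2b and Hba-a2 may be split with their close copies, so these values are uncertain.

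The other mature neutrophils gave a like count in the same comparison, with 361 of 8663 genes called lower (4.17%) and 3 higher (0.0346%) in edgeR's test. Without HLU replicate 1 it called 3096 genes there and without HLU replicate 2 it called 861. The difference of the HLU effect between the states was tested within libraries. Of 8838 genes 35 (0.396%) passed edgeR's interaction test (adjusted p under 0.05) and fell further in the members, and 0 (0%) did so in the other direction; 559 genes had an unadjusted p under 0.05, and DESeq2 called 22. The count was 98 without Ctrl replicate 1, 109 without Ctrl replicate 2 and 84 without HLU replicate 1. The 3 higher genes in the other mature neutrophils were Cdc14a, Gramd1b and Il7r. The 5 with the smallest p in the interaction test were Prg4, Mgp, Cryab, Fn1 and Mmp3. Prg4, which codes for lubricin of joint surfaces, gave 3499 and 6399 UMIs in the Ctrl members against 1 and 19 in the HLU members, whereas the other mature neutrophils of HLU replicate 2 gave 1834 UMIs (interaction log2 fold change -6.89, SE 0.49, adjusted p = 1.24e-06, edgeR). Without HLU replicate 2 the value for Prg4 was -3.08 (edgeR's adjusted p = 0.485). Mgp gave 453 and 893 UMIs in the Ctrl members and 40 and 2 in the HLU members, against 2019 UMIs in the other mature neutrophils of HLU replicate 1 (-4.36, SE 0.32, adjusted p = 1.24e-06, edgeR). Prg4 was thus high in the summed counts of the other mature neutrophils of 1 HLU library and Mgp in those of the other. Of those cells, 42.4% in HLU replicate 1 and 17.1% in HLU replicate 2 held at least 1 UMI of the skeletal lists. Only 6 of 943 and 1 of 563 drew at least 5% of their UMIs from these lists. How many cells gave these counts was not tested, and the interaction was not fitted without such cells or without putative doublets. Of the 35 genes 9 were on the cartilage list, 2 on that of mesenchyme and bone, and 1, Hbegf, on the 18 lists of neutrophil programmes (-4.16, SE 0.81, adjusted p = 0.0264, edgeR).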

How the data were processed

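Single-cell libraries of bone (10x Genomics 3′ kit) were deposited as raw UMI counts per gene and barcode, which the authors made with Cell Ranger 6.0.0 on mm10 per the submitters' processing notes. Barcodes with 1000 to 40000 UMIs, at least 200 genes, at most 10% mitochondrial and at most 0.2% haemoglobin UMIs were kept. Members were then selected by the rule given at the start. The members and gene lists were chosen with earlier results of these data known. Scrublet in scanpy 1.11.5 scored doublets (0.8% expected per 1000 cells), which were kept and removed as an alternative.

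Counts were summed per library and state and tested with edgeR 4.0.16 (R 4.3.3; TMM factors, edgeR's filter on low counts, quasi-likelihood test, Benjamini-Hochberg adjusted p under 0.05). The interaction fit had a term for each library. DESeq2 1.42.0 was an alternative. Others were no filter, at least 10 counts in every library, a replicate block, TMM without ribosomal protein genes, other activation limits, equal cell numbers (275 per library), sums without transcripts of other cells, and each library left out. Both alternatives on the Creg1 limit and the removal of cells rich in skeletal transcripts were chosen after seeing the data. The scripts were tested on simulated data. Other steps ran in Python 3.11.15 (scipy 1.17.1, numpy 2.4.6, pandas 2.3.3). Intervals (95%, exact binomial) and floors (3 counts) cover counting error only. For HLU against Ctrl, edgeR's p-values measure the spread between 2 libraries a group, with information shared across genes. Those of the interaction measure the spread between libraries of the difference between states, also with such sharing.

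Genes were named by rule: the 15 largest and 10 smallest ratios between states with 1 sign in all 4 libraries, the 8 largest rises and 8 largest falls that passed the test without overlap (filled up by smallest p), the 5 smallest p of the interaction, and the most abundant members of each list. Other genes named as the few members of a count were chosen after their values were seen. Results for a few genes under this rule were left out and are not reported here.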

Additional observations from a re-analysis of the deposited data

Results flagged for a closer look

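The effect of HLU differed between activated and other mature neutrophils for 35 genes in edgeR's interaction test (adjusted p under 0.05), all with a larger fall in the activated cells. The 5 with the smallest p had interaction log2 fold changes of -6.89 for Prg4, -4.36 for Mgp, -6.70 for Cryab, -3.29 for Fn1 and -4.80 for Mmp3. Without HLU replicate 2 the value for Prg4 was -3.08 and no longer passed (edgeR's adjusted p = 0.485). These genes were also abundant in the skeletal cells of the Ctrl libraries, and the part of such cells in the difference was not tested. Cryab gave 638 and 207 UMIs in the Ctrl members and 1 and 0 in the HLU members, against 1595 and 394 and against 108 and 51 UMIs in the other mature neutrophils.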

How the results depend on the processing

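The 294 genes called between HLU and Ctrl in activated neutrophils became 978 without a filter on low counts, 6 with at least 10 counts in every library, 182 with an activation sum of at least 5 UMIs, 134 without putative doublets, 137 with equal cell numbers and 125 without cells rich in skeletal transcripts. DESeq2 called 389 and shared 290 with edgeR. Leaving out 1 library gave 185 to 2756 calls, the highest without HLU replicate 1 (1180 higher and 1576 lower) and 719 without HLU replicate 2 (114 higher). With 1 HLU library left, that lone library is assumed to vary like the Ctrl libraries. In the other mature neutrophils the 364 calls became 1155 without a filter and 40 with at least 10 counts, and 305 to 3096 with 1 library left out. The 35 interaction calls became 22 by DESeq2, 84 without a filter and 1 with at least 10 counts, and 45 to 109 with 1 library left out. With the replicate number as a block the calls were 354 in activated (9 higher, among them Mrgpra2a, Stfa3 and Ifitm6, against 0 without the block) and 608 in other mature neutrophils (71 higher, against 3). Deviations of same-numbered libraries from their group means correlated at -0.039 across 7098 genes. With 2 libraries a group, this 1 value cannot tell whether the numbers pair the samples. The interaction fit already had a term for each library. The cause of these changes was not tested.

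The difference in share between HLU and Ctrl (0.609 percentage points) was within the spread of the libraries and had no stable sign. It ranged from -5.69 (without Ctrl replicate 1) to 6.90 with 1 library left out, and was -4.57 without HLU replicate 2, -1.47 as a share of all neutrophils and -1.59 with an activation sum of at least 2 UMIs. It was 16.8 whatever the Creg1 sum and 14.2 among mature neutrophils under the Creg1 limit. Between the states, the 22 higher genes became 51 with an activation sum of at least 5 UMIs and 29 in cells of 3000 to 10000 UMIs. The 125 lower genes became 211 without doublets, 213 with at least 5 UMIs and 103 in cells of 3000 to 10000 UMIs. None of the genes named by state ratio, by rise or fall in HLU, or by the interaction changed direction in the alternatives run. In the alternatives for the named state ratios, 6 values moved by 1 SD or more and 69 by less. In cells of 3000 to 10000 UMIs (40, 182, 150 and 587 members), the mean log2 ratio of 1500015O10Rik went from -2.57 to -0.16. Cytl1 went from -2.28 to -0.90, Lilra6 from 1.36 to 0.70 and Snx10 from 1.14 to 0.64. Cxcl2 went from 1.25 to 1.53 and Il1b from 1.14 to 1.55 there. The most abundant members of each list and the other genes named were not all traced through the alternatives. Lcn2, for one, was higher in HLU on average. In HLU replicate 1, at 3614 CPM, it lay below both Ctrl libraries (4238 and 5986 CPM). All 8 named falls passed the test in each alternative that gave a value, while of the 8 named rises, which did not pass in the fit reported, 8 passed without a filter and without HLU replicate 1, 7 without HLU replicate 2, 6 by DESeq2, 3 with the replicate block and 1 with an activation sum of at least 5 UMIs. The shallowest sum was that of the members of Ctrl replicate 1, with 685296 UMIs.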
